A study of Homo sapiens with 8 samples.

Results

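Cholesterol is built in the cytosol and endoplasmic reticulum from acetyl-CoA, first through the mevalonate steps to farnesyl diphosphate, then through squalene and lanosterol to the finished sterol. When membrane sterol is low, SCAP escorts the transcription factors SREBP1 and SREBP2 (genes SREBF1 and SREBF2) from the endoplasmic reticulum to the Golgi, where they are cleaved and released to switch on the pathway, and when sterol is ample the INSIG proteins hold SCAP back. Surplus sterol is esterified by SOAT1 or exported by ABCA1 and ABCG1, whose genes are classic targets of the liver X receptors, which sense oxysterols.

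The expression of 27 genes of cholesterol synthesis, SREBP control and sterol transport was followed in 8 RNA sequencing libraries, as 27 of 40693 gene symbols in the deposited tables, and all 27 were found under their own symbol. They were chosen by name as pathway members and not from measured values, although earlier results of these data were known. They comprise 18 synthesis enzymes, 5 SREBP regulators and 4 genes of sterol transport and storage. The libraries came from SW620, an established human colorectal adenocarcinoma line that the labels place at Dukes' type C, and SW480, one of Dukes' type B, both grown in medium with serum. Of SW620 there were 3 libraries of a stable population carrying a lentiviral hairpin RNA against FOXA2 (shFOXA2), 3 of one carrying a control hairpin (shNC), and 1 of untreated cells, and of SW480 there was 1 library of untreated cells. The hairpins were driven by a U6 promoter and the populations were selected with puromycin. The sample titles point to hairpin 1 of the pair that the labels list, and nothing in the labels says whether replicates were separate cultures, so p-values measure the spread between these libraries, which may be technical.

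Total counts were 7478411 to 12068790 in shFOXA2, 12133652 to 13076566 in shNC, 95935348 in SW620 and 72323506 in SW480. FOXA2, which encodes a pioneer transcription factor of endoderm, had 30.2, 29.3 and 22.2 CPM (counts per 1e+06 counts, scaled by the trimmed mean of M-values, TMM) in shFOXA2, against 52.4, 48.9 and 51.8 CPM in shNC (log2 fold change -0.91), and 7882 counts in SW620 against 319 in SW480. Of 11 colon epithelium markers, 10 had counts in each hairpin library, with CDX1 at 0. Hepatocyte markers summed to 190 CPM in shFOXA2 replicate 1, with 1882 counts of APOB, against 24.7 to 27.8 CPM in the other 5 hairpin libraries. In every hairpin library TTR and FGB, of the 10 markers, were at 0. Fibroblast and mesenchymal markers, mostly VIM, summed to 717 to 810 CPM in shFOXA2 and 441 to 484 CPM in shNC, with COL1A2 and COL3A1, of 10 markers, at 0 in all 6. Leukocyte markers summed to 33.0 to 40.8 CPM in shFOXA2 and 22.9 to 28.0 CPM in shNC, with CD3E, of 8 markers, at 0 in all 6. CD68 had the most counts of these 8 markers in each of the 6 libraries, from 95 to 199. The part of these differences in the results below was not tested, and in bulk RNA fewer cells of a type and less RNA per cell cannot be told apart.

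With FOXA2 lowered, the 18 enzymes stayed within 1.57-fold of the control, and the largest fall was in the exporter ABCG1. By edgeR's quasi-likelihood test, 9 of the 27 genes rose and 5 fell at an adjusted p of 0.05, which is 51.9% of them, against 39.0% of all 16100 genes tested (19.2% higher and 19.8% lower). The median log2 fold change was 0.04 over the 27 genes and 0.01 over all genes tested. Among called genes the median size of the log2 fold change was 0.31 for the 27 and 0.36 for all. All 3 shFOXA2 libraries lay above all 3 shNC libraries for 7 of the 27 genes and below them for 5, together 44.4%, against 48.7% of all genes tested (24.2% above and 24.5% below). With each library left out in turn, 8 of the 14 calls held in all 6 fits, namely HMGCS1, CYP51A1, MSMO1, SCAP, TM7SF2, SREBF1, SREBF2 and ABCG1. The share of all called genes that held in this way was not counted, so 8 of 14 cannot be placed against it.

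**Figure D1:**
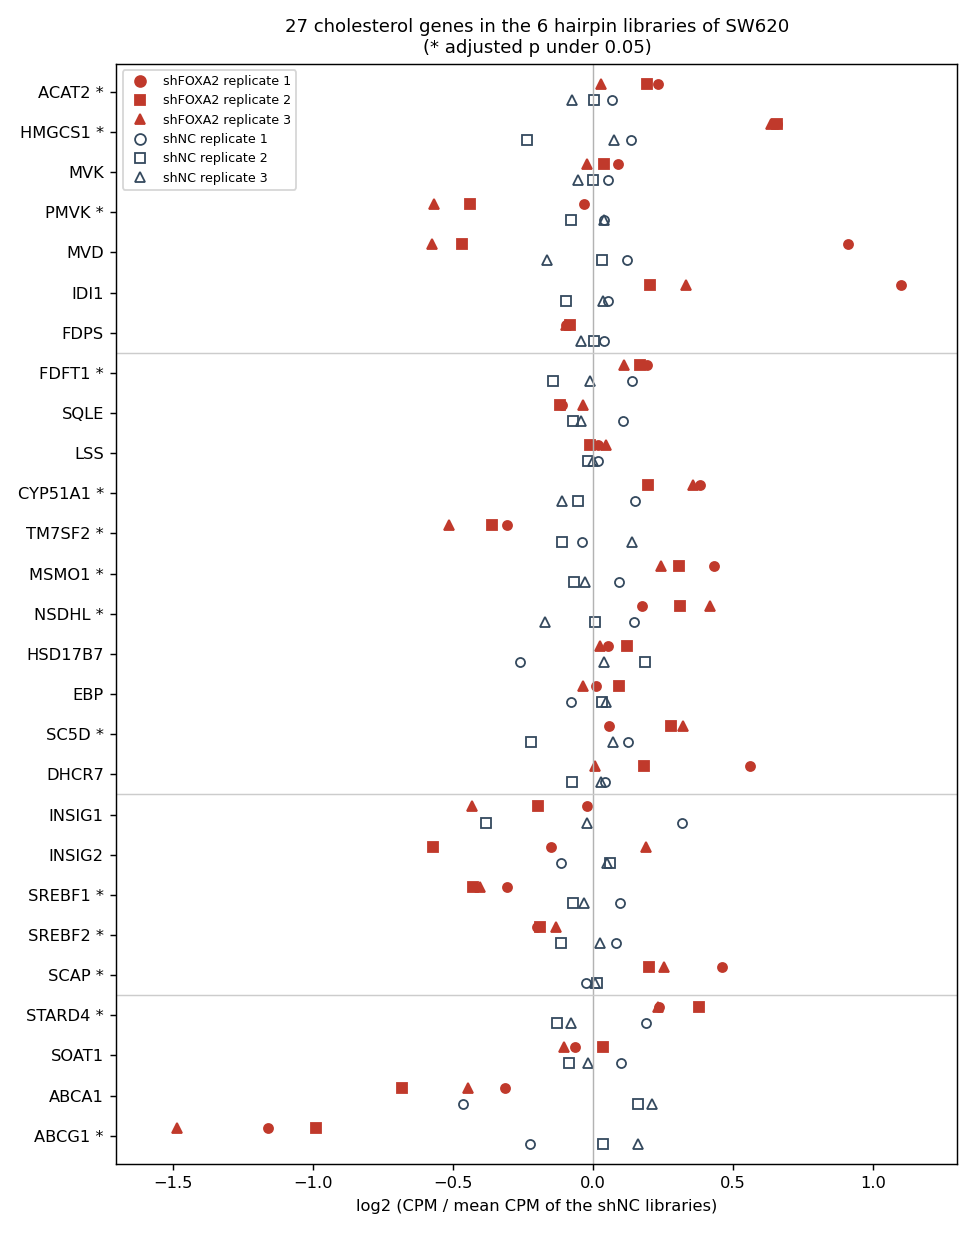
Level of each of the 27 genes in the 3 shFOXA2 libraries (filled red, above) and the 3 shNC libraries (open blue, below), as log2 of CPM over the mean CPM of the shNC libraries; lines part the mevalonate enzymes, sterol enzymes, SREBP regulators and transport genes, from top to bottom. HMGCS1 lies to the right and ABCG1 to the left of every control library, and shFOXA2 replicate 1 stands apart for IDI1, MVD and DHCR7.

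In the mevalonate steps, 2 of 7 genes rose and 1 fell (42.9% called, against 39.0% of all genes tested). HMGCS1, the cytosolic HMG-CoA synthase, had 123, 123 and 121 CPM in shFOXA2, against 85.8, 66.3 and 82.2 CPM in shNC. The groups did not overlap, and HMGCS1 was 1.57-fold higher in shFOXA2, with a log2 difference of 0.65 (SE 0.09, adjusted p = 0.000385 by edgeR). It had the highest fold change of the 27. ACAT2, the cytosolic thiolase that makes acetoacetyl-CoA, averaged 99.1 ± 7.35 CPM in shFOXA2 and 89.1 ± 4.45 CPM in shNC (SD, n = 3 each). The log2 fold change of ACAT2 was 0.15 (SE 0.05, adjusted p = 0.0200 by edgeR), and it missed the threshold when replicate 1 or 2 of shFOXA2, or replicate 2 or 3 of shNC, was omitted, at adjusted p of 0.0529 to 0.187 by edgeR. PMVK, phosphomevalonate kinase, had 22.3, 16.8 and 15.4 CPM in shFOXA2, against 23.4, 21.6 and 23.4 CPM in shNC, so that shFOXA2 replicate 1 lay among the controls. Its log2 fold change was -0.31 (SE 0.11, adjusted p = 0.0203 by edgeR), or -0.51 without shFOXA2 replicate 1. PMVK missed the threshold when replicate 2 or 3 of shFOXA2, or replicate 3 of shNC, was omitted, at adjusted p of 0.0811 to 0.163 by edgeR.

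IDI1 and MVD depended on shFOXA2 replicate 1, the library that also held the APOB counts. IDI1, which interconverts the 5-carbon isoprenoid units, had 105, 56.7 and 61.9 CPM in shFOXA2, against 51.1, 46.1 and 50.4 CPM in shNC. Every shFOXA2 library was above every shNC library, but edgeR did not call the gene with all libraries (log2 fold change 0.62, SE 0.29, adjusted p = 0.181), while limma-voom called it higher (adjusted p = 0.0116). With shFOXA2 replicate 1 omitted, IDI1 rose by a log2 value of 0.27 (adjusted p = 0.00210 by edgeR). MVD, mevalonate diphosphate decarboxylase, had 30.0, 11.5 and 10.7 CPM in shFOXA2, against 17.3, 16.3 and 14.2 CPM in shNC. Replicate 1 of shFOXA2 was above all controls and replicates 2 and 3 were below them. The log2 fold change of MVD was 0.18 (SE 0.49, adjusted p = 0.823 by edgeR) with all libraries and -0.53 (adjusted p = 0.00164) without shFOXA2 replicate 1. FDPS, farnesyl diphosphate synthase, had 105 to 107 CPM in shFOXA2, below the 109 to 116 CPM of shNC, with a log2 fold change of -0.09 that did not pass (adjusted p = 0.110 by edgeR). MVK, mevalonate kinase, did not pass, at 0.04 on the log2 scale (SE 0.11, adjusted p = 0.818).

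**Figure D2:**
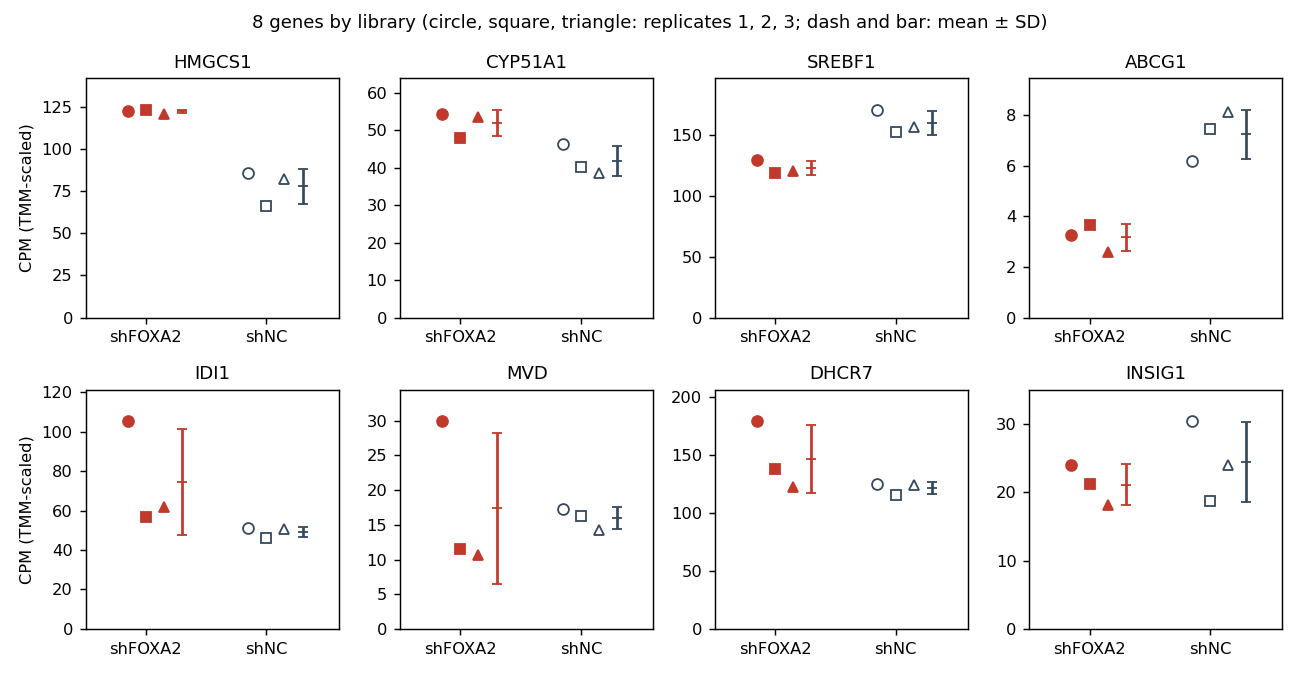
TMM-scaled CPM of 8 genes in the 3 shFOXA2 libraries (filled, left) and the 3 shNC libraries (open, right), with the mean and SD of each group. In the top row the groups do not overlap, as for ABCG1 at 2.60 to 3.66 CPM in shFOXA2 and 6.21 to 8.12 CPM in shNC. In the bottom row shFOXA2 replicate 1 stands apart for IDI1, MVD and DHCR7, as for MVD at 30.0 CPM. The groups of IDI1 do not overlap either, and the libraries of INSIG1 are spread and overlap.

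In the sterol steps, 5 of 11 genes rose and 1 fell (54.5% called, against 39.0% of all genes tested). CYP51A1, lanosterol 14-demethylase, had 54.4, 47.8 and 53.5 CPM in shFOXA2, against 46.4, 40.2 and 38.7 CPM in shNC. All 3 shFOXA2 libraries were higher, and the log2 fold change was 0.32 (SE 0.07, adjusted p = 0.000383 by edgeR). MSMO1, the sterol methyl oxidase that acts after it, had 28.8, 26.4 and 25.3 CPM in shFOXA2, against 22.8, 20.3 and 21.0 CPM in shNC (log2 fold change 0.33, SE 0.09, adjusted p = 0.00231), again without overlap. NSDHL, the decarboxylating dehydrogenase of the same demethylation, had 32.3, 35.5 and 38.2 CPM in shFOXA2, against 31.7, 28.7 and 25.4 CPM in shNC (log2 fold change 0.30, SE 0.09, adjusted p = 0.00436). The NSDHL groups did not overlap, although shFOXA2 replicate 1 was close to shNC replicate 1, and NSDHL missed the threshold with replicate 3 omitted from shFOXA2 (adjusted p = 0.0693) or from shNC (adjusted p = 0.0619).

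FDFT1, squalene synthase (log2 fold change 0.16, adjusted p = 0.0241), and SC5D, a sterol desaturase (0.22, adjusted p = 0.0468), also rose in shFOXA2, with groups that overlapped. The FDFT1 call remained only without shNC replicate 1, at adjusted p of 0.0542 to 0.228 without any of the other 5 libraries. SC5D missed it when replicate 2 or 3 of either group was omitted, at adjusted p of 0.0639 to 0.318, and also with scaling by total counts (0.0621) or with no filter on low counts (0.0562). TM7SF2, a sterol 14-reductase, went the other way, with 16.0, 15.5 and 13.9 CPM in shFOXA2, against 19.3, 18.4 and 21.8 CPM in shNC. The groups did not overlap, and the log2 fold change of TM7SF2 was -0.39 (SE 0.10, adjusted p = 0.00232 by edgeR). DHCR7, which catalyses a last step to cholesterol, had 179, 138 and 122 CPM in shFOXA2, against 125, 115 and 124 CPM in shNC. Its log2 fold change of 0.27 did not pass (adjusted p = 0.288) and was 0.09 without shFOXA2 replicate 1. SQLE, squalene epoxidase (-0.09, SE 0.08), LSS, lanosterol synthase (0.02, SE 0.06), EBP, a sterol isomerase (0.02, SE 0.05), and HSD17B7, a sterol ketoreductase (0.06, SE 0.14), had log2 fold changes that did not pass, at adjusted p of 0.388 to 0.836.

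Among the 5 SREBP regulators, 1 rose and 2 fell, where 39.0% of all genes tested were called in either direction. SREBF1 had 129, 119 and 121 CPM in shFOXA2, against 171, 152 and 156 CPM in shNC. All shFOXA2 libraries were lower and the log2 fold change was -0.38 (SE 0.05, adjusted p = 3.94e-08 by edgeR). SREBF2 had 94.0, 94.6 and 98.4 CPM in shFOXA2, against 114, 99.7 and 110 CPM in shNC, lower without overlap by a smaller margin (log2 fold change -0.17, SE 0.05, adjusted p = 0.00508). SCAP, the escort of both proteins, had 83.5, 69.8 and 72.6 CPM in shFOXA2, against 59.8, 61.4 and 61.2 CPM in shNC. The SCAP groups did not overlap, with shFOXA2 replicate 1 the highest, and the log2 fold change was 0.31 (SE 0.06, adjusted p = 3.77e-05). INSIG1, a retention protein whose own gene is an SREBP target, had 24.0, 21.3 and 18.1 CPM in shFOXA2, against 30.5, 18.7 and 24.0 CPM in shNC (log2 fold change -0.20, SE 0.22, adjusted p = 0.540). It was called, as lower, only without shNC replicate 2 (adjusted p = 0.0163). INSIG2, the related retention protein, had 7.43, 5.56 and 9.39 CPM in shFOXA2, against 7.61, 8.60 and 8.53 CPM in shNC (log2 fold change -0.13, SE 0.16, adjusted p = 0.578).

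Among the 4 transport and storage genes, 1 rose and 1 fell, again beside 39.0% called among all genes tested. ABCG1, a half-size exporter of sterol to lipoproteins, had 3.25, 3.66 and 2.60 CPM in shFOXA2, against 6.21, 7.45 and 8.12 CPM in shNC. The groups were far apart, at a 2.30-fold lower level in shFOXA2, which is -1.20 on the log2 scale (SE 0.19, adjusted p = 1.81e-06 by edgeR) and the lowest of the 27. ABCA1, which exports sterol to apolipoprotein A-I, had 5.26, 4.07 and 4.80 CPM in shFOXA2, against 4.74, 7.29 and 7.55 CPM in shNC. Replicate 1 of shNC lay among the shFOXA2 libraries, and the log2 fold change of -0.45 (SE 0.19) did not pass (adjusted p = 0.0519), whereas without shNC replicate 1 it was -0.65 (adjusted p = 0.00508). Omitting replicate 1 of shFOXA2 also brought ABCA1 past the threshold, as lower (adjusted p = 0.0464). STARD4, which carries sterol between membranes, had 22.7, 25.1 and 22.7 CPM in shFOXA2, against 22.0, 17.7 and 18.3 CPM in shNC. The groups did not overlap, although shNC replicate 1 came close, and STARD4 rose (log2 fold change 0.28, SE 0.10, adjusted p = 0.0196). STARD4 missed the threshold when replicate 2 of shFOXA2, or replicate 2 or 3 of shNC, was omitted, at adjusted p of 0.0944 to 0.119. SOAT1, the enzyme that esterifies sterol for storage, did not pass, at -0.05 on the log2 scale (SE 0.09, adjusted p = 0.721).

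Without shFOXA2 replicate 1, 8 of the 27 genes rose and 7 fell, against 17.2% higher and 18.1% lower among the 16400 genes tested in that fit. IDI1 joined those that rose, MVD and ABCA1 joined those that fell, and the calls of ACAT2 and FDFT1 were lost. The summed counts of the 27 genes were 0.154%, 0.139% and 0.138% of all counts in shFOXA2 replicates 1 to 3, against 0.140%, 0.130% and 0.137% in shNC replicates 1 to 3. These ranges overlap, and shFOXA2 replicate 1 was the highest of the 6. The 18 enzymes had a median log2 fold change of 0.16, or 0.08 without shFOXA2 replicate 1.

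The sequences before the start of called genes are shown for the sequence elements that SREBP and its partner NF-Y bind. RefSeq promoters (GRCh38.p14, 250 bases before to 50 after a start) were listed for 23 of the 27 genes, in 29 promoters. A core of the sterol regulatory element, TCACNCCAC on either strand, was found in 1 of the 29 promoters, that of SREBF2 at position -133 from the start, and in 1.13% of all 35116 promoters listed. The CCAAT box, the binding sequence of NF-Y, which acts beside SREBP at many of these genes, was found on either strand in 19 of the 29 promoters, against 34.6% of all promoters. Per gene it was in 17 of 23 genes and in 13 of the 15 synthesis enzymes listed, against 39.7% of all genes. The GC box GGGCGG was in 27 of the 29 promoters, against 45.0% of all, and the forkhead sequence TGTTTNC, of the kind that FOXA proteins bind, in 4 of the 29, against 18.0% of all. Matches are descriptions of these windows, and binding was not measured here. The promoters below are those of 3 called genes that rose, HMGCS1 (chr5:43313363-43313662, minus strand, first of 2 starts listed), MSMO1 (chr4:165327419-165327718, plus strand) and STARD4 (chr5:111512486-111512785, minus strand), and of SREBF2 (chr22:41832855-41833154, plus strand). They read 5′ to 3′ on the gene's strand, with capitals for the sterol element core and for CCAAT boxes, which read ATTGG where they lie on the other strand.
HMGCS1: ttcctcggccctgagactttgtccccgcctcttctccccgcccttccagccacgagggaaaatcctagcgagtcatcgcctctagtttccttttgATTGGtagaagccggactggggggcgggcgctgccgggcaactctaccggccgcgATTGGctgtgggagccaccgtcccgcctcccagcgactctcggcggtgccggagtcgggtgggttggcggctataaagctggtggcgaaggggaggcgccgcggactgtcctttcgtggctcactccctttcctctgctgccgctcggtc
MSMO1: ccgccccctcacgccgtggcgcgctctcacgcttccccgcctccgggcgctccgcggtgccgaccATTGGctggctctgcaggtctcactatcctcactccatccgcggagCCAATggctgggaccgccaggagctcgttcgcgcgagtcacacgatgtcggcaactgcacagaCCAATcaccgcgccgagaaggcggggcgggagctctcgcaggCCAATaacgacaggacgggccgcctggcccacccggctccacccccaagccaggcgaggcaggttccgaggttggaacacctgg
STARD4: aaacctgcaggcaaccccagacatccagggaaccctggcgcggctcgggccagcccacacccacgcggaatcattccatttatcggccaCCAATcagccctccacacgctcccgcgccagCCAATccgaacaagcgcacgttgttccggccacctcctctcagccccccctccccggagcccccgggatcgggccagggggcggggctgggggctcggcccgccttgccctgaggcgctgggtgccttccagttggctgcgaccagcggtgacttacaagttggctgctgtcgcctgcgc
SREBF2: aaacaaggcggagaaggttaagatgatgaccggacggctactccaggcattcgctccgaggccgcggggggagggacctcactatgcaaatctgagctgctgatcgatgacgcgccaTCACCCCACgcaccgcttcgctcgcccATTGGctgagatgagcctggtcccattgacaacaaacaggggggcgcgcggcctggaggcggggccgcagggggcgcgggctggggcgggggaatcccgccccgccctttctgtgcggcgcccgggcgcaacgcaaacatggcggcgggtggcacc

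HMGCS1 and STARD4 each hold 2 CCAAT boxes in these windows and MSMO1 holds 4. The promoters of CYP51A1, SCAP, SREBF1 and PMVK, whose levels also changed, hold 0, as do those of INSIG2 and ABCA1, which were not called. MVK and NSDHL hold 5 each, the most among the listed genes, of which NSDHL rose and MVK did not pass the test. The box is thus found both in promoters of genes that rose and in promoters of genes that were not called or fell, such as TM7SF2 with 1.

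A hairpin can also act on other transcripts through short matches, and 2 stretches of 7 bases from the hairpin 1 target, AACACGT and ACACGTA, had been picked earlier from these same data. In GENCODE v29, 1 of the 27 genes, INSIG2, held either in an annotated 3′ untranslated region (chromosome 2, 118109996 to 118110003, plus strand), which is 3.70%, against 5.31% of 19113 genes. INSIG2 was not called, and none of the 14 called genes among the 27 held either stretch. With a share of 5.31% over all genes, finding none among 14 carries no information on whether the hairpin acted on them. Other stretches of the target were not searched. In the further lists described below, TMEM97 held both stretches, and ERLIN2, SCD and VLDLR held AACACGT. Of these, TMEM97 fell (log2 fold change -0.66) and ERLIN2 rose (0.41), while SCD and VLDLR were not called. Whether the hairpin acted on any of them through these matches was not tested.

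Genes around the pathway were read from 5 further lists. Of 12 genes of SREBP cleavage and sterol-regulated degradation, 4 rose and 3 fell (58.3% called, against 39.0% of all genes tested). RNF139, a sterol-sensing ubiquitin ligase of the endoplasmic reticulum, averaged 14.9 ± 1.02 CPM in shFOXA2 and 35.6 ± 1.25 CPM in shNC (SD, n = 3 each), a log2 fold change of -1.25 (adjusted p = 2.49e-15 by edgeR). ERLIN1, which forms an SREBP-restraining complex with ERLIN2, fell to 64.8 ± 1.82 CPM in shFOXA2, against 95.4 ± 1.44 CPM in shNC (log2 fold change -0.56). ERLIN2 went the other way, at 71.0 ± 3.28 CPM in shFOXA2 and 53.2 ± 0.40 CPM in shNC (log2 fold change 0.41). Both partners were without overlap between groups.

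Of 12 genes of the isoprenoid branches, 3 rose and 1 fell (33.3% called, against 39.0% of all genes tested). The fall was in GGPS1, which makes geranylgeranyl diphosphate, at 22.3 ± 1.86 CPM in shFOXA2 and 31.9 ± 4.28 CPM in shNC (log2 fold change -0.51, adjusted p = 2.47e-05), while NUS1, for dolichol synthesis, and FNTA, a prenyltransferase subunit, rose by 0.18 each on the log2 scale. NUS1 missed the threshold with replicate 3 of shFOXA2 omitted (adjusted p = 0.0606), and FNTA with replicate 2 of shFOXA2 (0.0530) or replicate 1 of shNC (0.161). Of 8 oxysterol and liver X receptor genes tested, out of 12, 2 rose and 3 fell (62.5% called, against 39.0% of all genes). The receptor NR1H2 rose (log2 fold change 0.25, adjusted p = 0.00251), and LPCAT3, a phospholipid-remodelling target of the receptors (-0.27, adjusted p = 0.000330), and NCOA7, a nuclear receptor coactivator (-0.38, adjusted p = 0.00219), fell, as did CYP27A1, which makes an oxysterol (-0.61, adjusted p = 0.0370), with overlapping groups. CYP27A1 missed the threshold when replicate 2 or 3 of either group was omitted, at adjusted p of 0.0606 to 0.208. MYLIP, another target of these receptors, had a log2 fold change of 0.03 (adjusted p = 0.873), and SMPDL3A, a further one, rose by 1.05 on the log2 scale at 2.17 ± 0.17 CPM in shFOXA2 and 1.05 ± 0.12 CPM in shNC, and CYP27A1, MYLIP and SMPDL3A were named after their values were seen.

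Of 14 sterol trafficking genes tested, out of 16, 3 rose and 4 fell, beside 39.0% called among all genes tested. CAV1, the caveolar coat protein, averaged 291 ± 22.6 CPM in shFOXA2 and 108 ± 4.01 CPM in shNC (log2 fold change 1.43, adjusted p = 3.29e-22). SCARB1, a lipoprotein receptor, rose (0.35, adjusted p = 1.03e-05), and TMEM97, a sterol-regulated membrane protein, fell (-0.66, adjusted p = 2.68e-09). Of 11 fatty acid targets of SREBP1, 2 rose and 2 fell (36.4% called, against 39.0% of all genes tested). ACLY, which supplies acetyl-CoA to both pathways, rose (0.40, adjusted p = 1.54e-10), and ACSS2, another acetyl-CoA source (-0.85, adjusted p = 1.28e-08), and the elongase ELOVL5 (-0.35, adjusted p = 3.56e-07) fell. Median log2 fold changes of the 5 lists lay between -0.15 and 0.06.

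Levels can be compared between genes only per length, for which the authors' RPKM (reads per kilobase of listed gene length and per 1e+06 reads) was used. In shNC the highest of the 27 genes was EBP at 35.9 ± 2.21 RPKM, followed by FDPS at 30.4 ± 0.43 and DHCR7 at 29.2 ± 1.20 RPKM (SD, n = 3 each). FDPS and DHCR7 did not differ beyond their spread. ABCA1 and ABCG1 were the lowest of the 27, at 0.41 ± 0.05 and 0.51 ± 0.08 RPKM in shFOXA2, and 0.58 ± 0.15 and 1.19 ± 0.18 RPKM in shNC. Of the enzymes, MVK, MVD and HSD17B7 were lowest in shNC, at 2.66, 3.38 and 2.15 RPKM. HMGCS1 ranked 4 of the 27 in shFOXA2, at 25.9 ± 0.11 RPKM, and 8 of the 27 in shNC, at 16.6 ± 2.11 RPKM.

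**Figure D3:**
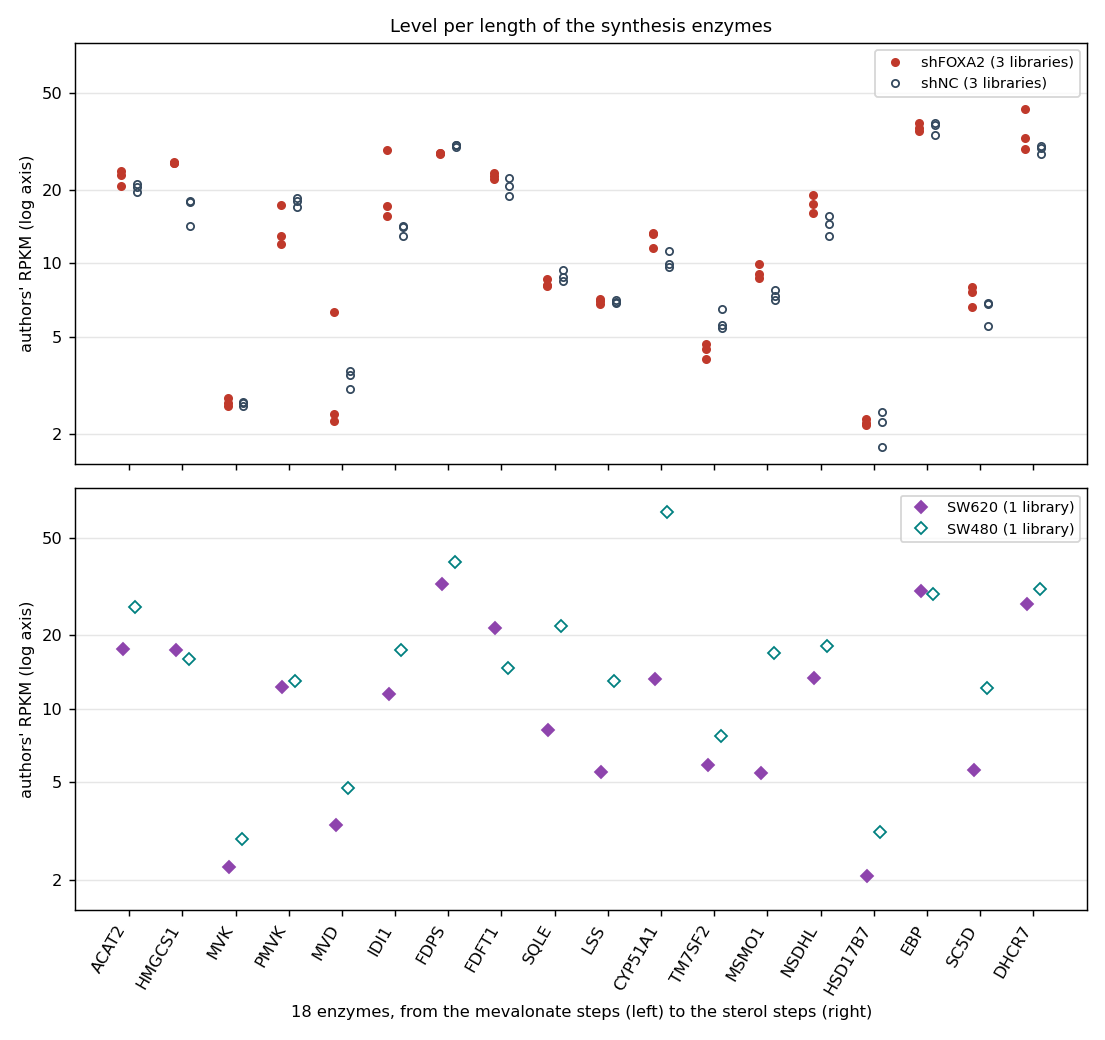
The authors' RPKM (log axis) of the 18 synthesis enzymes in pathway order, with the shFOXA2 (filled) and shNC (open) libraries in the upper panel and untreated SW620 (filled) and SW480 (open) in the lower panel. The hairpin groups lie close together beside the distance between enzymes, from 2.15 RPKM for HSD17B7 to 35.9 RPKM for EBP in shNC, and CYP51A1 stands out in SW480 at 64.0 RPKM.

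The untreated lines, with 1 library each and no test, differed more than the hairpin groups did. In SW620 the 27 genes took 0.130% of all counts, against 0.198% in SW480. At a threshold of 2-fold, 1 of the 27 genes was higher in SW620 and 8 were lower, which is 29.6% lower, against 16.0% higher and 15.5% lower among the 21343 genes whose higher library had 20 counts or more. At 1.5-fold, 2 of the 27 were higher and 11 lower, against 25.4% higher and 24.3% lower among the same genes. The median log2 ratio of SW620 over SW480 was -0.45 over the 27 genes and 0.03 over all. The exact 95% intervals given with these ratios cover counting error only. They lay below 1 for 18 genes, above 1 for 7 and included 1 for 2, EBP and SCAP. At these depths small ratios exclude 1, such as that of HMGCS1 at 1.05 (1.02 to 1.09). The share of all genes whose interval excluded 1 was not counted, so these counts cannot be placed against it.

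**Figure D4:**
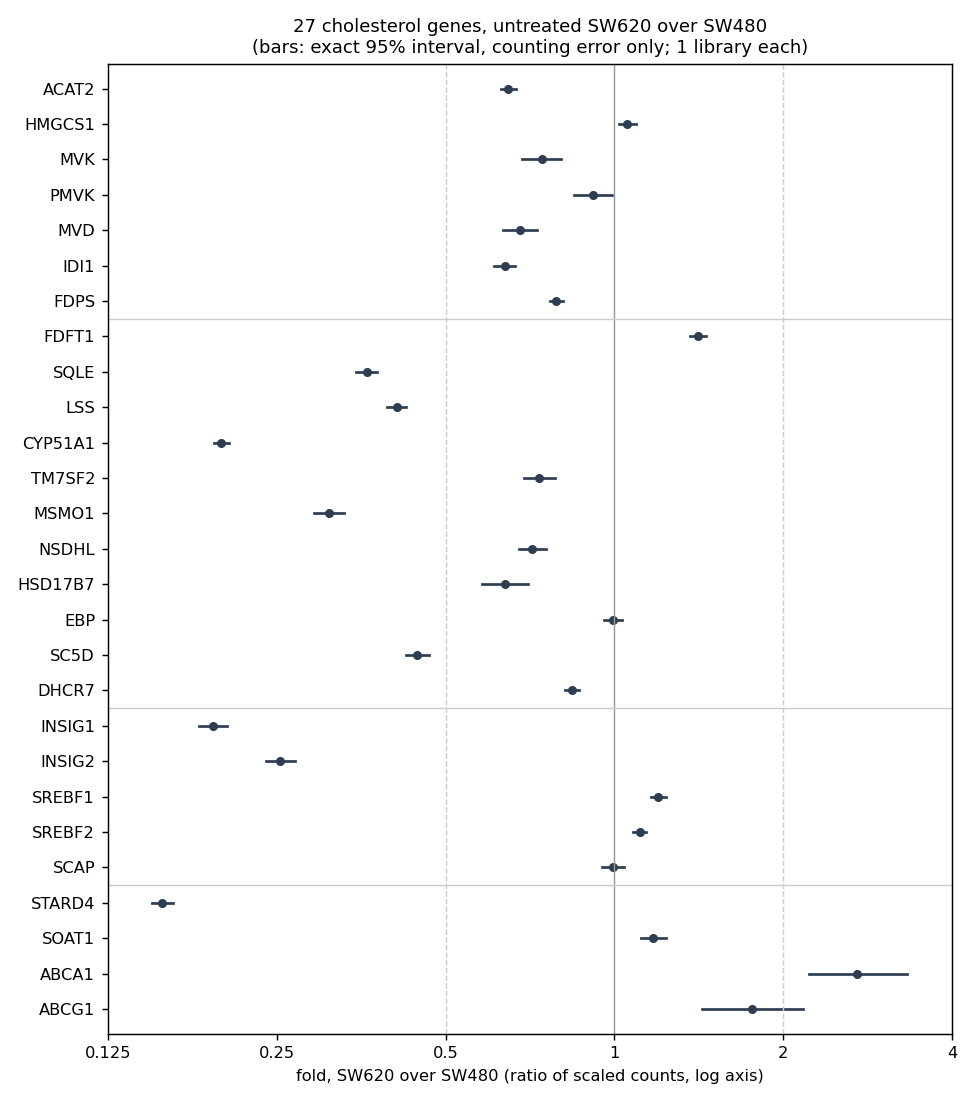
Ratio of scaled counts in untreated SW620 over untreated SW480 for the 27 genes (log axis), with exact 95% intervals for counting error, 1 library each. STARD4, INSIG1 and CYP51A1 are 5-fold or more lower in SW620, and ABCA1, at 2.71, is the only gene more than 2-fold higher.

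The 9 genes at least 2-fold apart were 5 sterol enzymes, both INSIG genes, STARD4 and ABCA1. STARD4 had 2668 counts in SW620 and 12418 in SW480, 6.39-fold lower in SW620 (6.13 to 6.67). INSIG1 had 1414 counts in SW620 and 5346 in SW480, 5.19-fold lower in SW620 (4.89 to 5.51), and INSIG2 had 1423 and 4081, 3.94-fold lower in SW620 (3.71 to 4.19). Both retention genes were thus lower in SW620, whereas SREBF1 was 1.20-fold (1.16 to 1.24) and SREBF2 1.11-fold (1.08 to 1.14) higher in SW620, and SCAP had a ratio of 0.995 (0.951 to 1.04).

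Among the enzymes, CYP51A1 had 5159 counts in SW620 and 18862 in SW480, 5.02-fold lower in SW620 (4.87 to 5.18). On the RPKM scale CYP51A1 ranked 10 of the 27 in SW620, at 13.2, and was the highest in SW480, at 64.0. MSMO1 (3.23-fold, 3.04 to 3.43), SQLE (2.76-fold, 2.65 to 2.88), LSS (2.44-fold, 2.35 to 2.54) and SC5D (2.24-fold, 2.14 to 2.35) were also lower in SW620. None of the 7 mevalonate enzymes was 2-fold apart, with ratios of SW620 over SW480 from 0.638 for IDI1 to 1.05 for HMGCS1. FDFT1, at the branch to squalene, was 1.41-fold higher in SW620 (1.36 to 1.46).

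Both exporters were higher in SW620. ABCA1 had 468 counts in SW620 and 126 in SW480, 2.71-fold higher in SW620 (2.22 to 3.32). ABCG1 had 323 counts in SW620 and 134 in SW480, 1.76-fold higher in SW620 (1.43 to 2.16). FOXA2 was low in shFOXA2 relative to shNC and in SW480 relative to SW620. The called genes are set beside the untreated ratios as a description only. A part of FOXA2 in the untreated ratios was not tested. With 1 library of each line, it cannot be told apart from other differences between the lines. Of the 5 genes that fell in shFOXA2, ABCG1, SREBF1 and SREBF2 had an interval of SW620 over SW480 above 1, and PMVK and TM7SF2 below 1. Of the 9 that rose, 6 had an interval below 1 (ACAT2, CYP51A1, MSMO1, NSDHL, SC5D and STARD4), 2 above 1 (HMGCS1 and FDFT1), and SCAP included 1, beside 18, 7 and 2 of all 27 genes.

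Some counts may mix neighbouring genes. In GENCODE v29, 11 of the 27 genes share exon sequence with a gene on the opposite strand, among them ACAT2 with TCP1, SREBF1 with RAI1 and STARD4 with STARD4-AS1. A same-strand gene overlaps 2 of the 27, CYP51A1 (AC000120.2 and AC000120.3) and TM7SF2 (VPS51), whose shared reads strand cannot part. No source used here says whether counting used strand. On GRCh38, HMGCS1 lies on chromosome 5 from 43289395 to 43313512, SREBF1 on chromosome 17 from 17810399 to 17837002, SREBF2 on chromosome 22 from 41833079 to 41907308, CYP51A1 on chromosome 7 from 92112151 to 92134803, and ABCG1 on chromosome 21 from 42199689 to 42297244. ABCG1 shares exon sequence with no other annotated gene there.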

How the data were processed

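RNA sequencing libraries were prepared with a directional kit, per the labels. The submitters' processing notes name HOMER and hg19 without their roles, and no source used here gives the aligner, counter or annotation. The deposited tables hold raw counts per gene, a gene length, and RPKM made by the authors, which equal the count scaled by length and table total for 100% of values above 20 counts (relative tolerance 1e-04). For repeated symbols (256) the entry with the highest summed count was used, which touched 0 of the 27 genes.

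The 6 hairpin libraries were compared with edgeR 4.0.16 (R 4.3.3; TMM scaling, default expression filter, robust quasi-likelihood test, two-sided, Benjamini-Hochberg over all genes tested). Biological coefficient of variation was 6.59%. SE is the log2 fold change over the square root of F. Untreated lines were compared as TMM-scaled ratios, with lower counts set to 3 where smaller. A limit of 3 counts equals 0.0313 to 0.401 CPM over the libraries.

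Between replicates of a group, chi-square over its degrees of freedom ran from 1.66 to 4.61, so replicates differed beyond counting noise. Replicate 1 stood apart in both groups. Its pairs were at 3.98 and 4.61 in shFOXA2 and at 4.42 and 4.34 in shNC. Replicates 2 and 3 were closer to each other, at 1.66 in shFOXA2 and 1.75 in shNC. The test was checked on simulated data of 16100 genes. It recovered 15 of 50 genes changed 1.25-fold, 28 of 50 at 1.5-fold, 39 of 50 at 2-fold and 50 of 50 at 4-fold. It also called 18 unchanged genes. A gene that did not pass may therefore still have changed, since some changed genes were missed even at 2-fold. Alternatives used DESeq2 1.42.0 and limma 3.58.1. Python 3.11.15 with scipy 1.17.1 and matplotlib 3.10.9 served for intervals, motifs and plots. The genes, lists and tests were chosen with earlier results of these data known. Named were all 27 genes and, per further list, up to 3 called genes by adjusted p; other names were added after their values were seen. Counts by role and list without shFOXA2 replicate 1, and shares with a shFOXA2 library left out, were added after seeing the data.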

Additional observations from a re-analysis of the deposited data

How the results depend on the processing

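Of 351 values from refitting the 27 log2 fold changes under 13 alternatives, 311 kept their direction, where called, and their side of the threshold, 33 lost a call, 6 gained one, and 1 reversed. The reversal was MVD, which ran from -0.53 without shFOXA2 replicate 1 to 0.44 without shFOXA2 replicate 3. The count of genes that rose among the 27 was 9, and 5 with the DESeq2 Wald test, which called 4 as lower and, over all genes, 2186 higher and 2379 lower, against 3095 and 3185 by edgeR. That test lost ACAT2, PMVK, FDFT1, SC5D and STARD4 (adjusted p of 0.0823 to 0.161), and limma-voom lost ACAT2, FDFT1 and SC5D (0.0545 to 0.0956). With 1 library left out it ran from 4 to 9, at 5 without shFOXA2 replicate 2, 5 without shNC replicate 2 and 4 without shNC replicate 3, and the count that fell ran from 4 to 7. Over all genes the counts with 1 library left out ran from 2502 to 2813 higher and from 2796 to 3092 lower. Same-numbered libraries did not deviate together (correlations of -0.00443, -0.0468 and -0.00511, against -0.0325 to 0.0407 for differently numbered ones). No pairing was thus seen by this measure, which cannot show how the libraries were made. With a replicate block, 8 of the 27 genes rose and 5 fell, the SC5D call being lost (adjusted p = 0.0589), and 3022 genes rose and 3118 fell in all. Between the untreated lines, 2 of the 27 genes were higher in SW620 and 11 lower at a threshold of 1.5-fold. Without mitochondrial genes in the total, the share of the 27 genes was 0.151% in shFOXA2, 0.143% in shNC, 0.147% in SW620 and 0.224% in SW480. With mitochondrial genes included, the mean share was 0.144% in shFOXA2 (0.139% to 0.146% with 1 of its libraries left out) and 0.136% in shNC. Depth limits ABCA1 and ABCG1 most, since they have the lowest counts of the 27.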
